A study of Mus musculus with 12 samples.

Results

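The constitutive intergenic regions described here are stretches of open chromatin that were listed in every one of 12 ATAC-seq libraries of mouse embryonic stem cells and that lie near, but outside, protein-coding genes. Peak lists were merged on chromosomes 1 to 19 wherever peaks overlapped by 1 bp. A merged region was kept when a peak of all 12 libraries overlapped it, when it lay outside the span of every GRCm38 protein-coding gene, and when the nearest such gene was more than 1 kb and less than 50 kb away. This left 4051 members of 95132 merged regions. They made up 18.03% of the 22472 regions listed in all 12 libraries, here called constitutive regions. The members were thus chosen by presence in these libraries and by position, so their presence is not a finding.

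The cells were BL6xCAST embryonic stem cells with synHPRT1 or synHPRT1R integrated on chromosome X, with 2 clones per genotype and 3 replicates per clone. Every library therefore came from cells with an integrated construct, and no library without one was analysed here. The culture medium, mostly 2i on gelatin-coated plates, held LIF and inhibitors of GSK3 and of MEK. The lists held 38403 to 63704 peaks per library. The labels do not say whether the replicates of a clone were separate cultures, so a p-value here reflects spread among libraries that may be only technical.

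ATAC-seq marks DNA that the Tn5 transposase can reach, mainly where nucleosomes are displaced. Between genes such sites are known to include enhancers, which activate genes over a distance, sites bound by the insulator protein CTCF, and the start sites of non-coding RNA genes. Transfer RNA genes and several small RNA genes are transcribed by RNA polymerase III from short promoters that lie within or just before the gene. In embryonic stem cells the enhancers of pluripotency genes are bound by factors such as OCT4, SOX2, NANOG and KLF4, and the microRNAs of the miR-290 family are among the most abundant small RNAs.

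MicroRNA genes and long non-coding RNA promoters inside the regions are shown first, since these are the members whose sequence RefSeq gives. Of 12 microRNA genes that overlapped members, 11 had a mature sequence in the RefSeq table for GRCm38.p6. The mature strands below come from 6 members, with the seed, bases 2 to 8, in capitals.
miR-713: uGCACUGAaggcacacagc
miR-210-3p: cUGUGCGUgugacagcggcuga
miR-760-3p: cGGCUCUGggucugugggga
let-7i-5p: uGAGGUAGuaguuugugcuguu
miR-9-5p: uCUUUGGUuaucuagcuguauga
miR-212-3p: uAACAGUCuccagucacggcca
miR-132-3p: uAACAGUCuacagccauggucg
Among them only miR-212-3p and miR-132-3p shared a seed, and their genes lay in the same member on chromosome 11. A cluster of 5 members on chromosome 7 ended 4586 bp from Mir290a, the first gene of the miR-290 family in its order on the chromosome. The 9 microRNA genes of that family in RefSeq lay 4586 to 6733 bp from the cluster. All overlap the span of the protein-coding gene Nlrp12, so the rule let no member overlap these microRNA genes. Of the 3′ strands RefSeq gives for them, the 5 whose seeds begin with AAGUGC are shown for comparison.
miR-290a-3p: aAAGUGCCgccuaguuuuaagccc
miR-291a-3p: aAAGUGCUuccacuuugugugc
miR-291b-3p: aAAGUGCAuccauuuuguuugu
miR-294-3p: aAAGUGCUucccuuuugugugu
miR-295-3p: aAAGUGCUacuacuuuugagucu
The strands miR-291a-3p, miR-294-3p and miR-295-3p shared 1 seed, and miR-290a-3p and miR-291b-3p had other seeds. The strands not shown, miR-290b-3p, miR-292b-3p and miR-293-3p, each had another seed that does not begin with these letters.

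RefSeq gives 300 bases around each start of a long non-coding RNA (lncRNA), 250 before it and 50 after it. Of 3796 such windows that lay 1 to 50 kb from protein-coding genes, 215 were wholly inside a member, in 187 members. The 2 windows in the highest-ranked members, and that of Chaserr, an lncRNA that lies beside Chd2 and limits its expression, are printed with each CG dinucleotide in capitals. Chaserr was chosen for its known role after its values were seen. The windows are 9430037G07Rik at chr9:88599194-88599493 on the minus strand, Gm46428 at chr13:66519416-66519715 on the plus strand and Chaserr at chr7:73558346-73558645 on the minus strand.
9430037G07Rik: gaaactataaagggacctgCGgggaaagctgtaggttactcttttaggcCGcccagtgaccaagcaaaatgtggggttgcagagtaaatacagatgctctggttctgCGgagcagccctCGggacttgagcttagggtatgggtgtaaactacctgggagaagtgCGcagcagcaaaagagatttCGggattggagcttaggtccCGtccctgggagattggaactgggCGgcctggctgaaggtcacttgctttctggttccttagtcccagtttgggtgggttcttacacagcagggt
Gm46428: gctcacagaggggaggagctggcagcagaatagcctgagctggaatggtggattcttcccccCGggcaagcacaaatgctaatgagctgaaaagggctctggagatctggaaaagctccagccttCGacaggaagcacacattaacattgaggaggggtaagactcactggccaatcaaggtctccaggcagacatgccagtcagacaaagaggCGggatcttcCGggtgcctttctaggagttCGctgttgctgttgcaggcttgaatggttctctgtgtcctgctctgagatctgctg
Chaserr: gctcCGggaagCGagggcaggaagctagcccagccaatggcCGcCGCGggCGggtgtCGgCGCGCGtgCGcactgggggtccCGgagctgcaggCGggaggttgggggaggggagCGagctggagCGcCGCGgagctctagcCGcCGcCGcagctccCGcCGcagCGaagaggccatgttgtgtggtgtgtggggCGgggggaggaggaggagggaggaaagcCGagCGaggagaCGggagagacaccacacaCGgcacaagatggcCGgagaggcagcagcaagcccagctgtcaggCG
The window of Chaserr held 30 CG dinucleotides and 72.3% G and C. That of 9430037G07Rik held 8 and 53.3%, and that of Gm46428 held 5 and 54.0%. The members around them had median folds of 9.94, 11.9 and 12.1 in the same order, where the fold is the authors' value for a peak, its summit signal over the local background.

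Over all windows the members' lncRNA promoters held more CG dinucleotides. The 215 windows wholly in a member had a median of 11. The median was 10 in the 61 other windows that overlapped a region of 12 libraries. It was 7 in the 404 windows that overlapped, wholly or partly, a region of 1 to 11 libraries, and 3 in the 3116 windows in no region. Only the first group required the whole window to lie inside. The GC box, the letters GGGCGG on either strand, which SP and KLF proteins are known to bind, was in 46.0% of the members' windows and in 11.1% of all 3796. The CCAAT box, CCAAT on either strand, was in 42.8% and 36.9%. TATAAA on either strand, the TATA box, was in 8.84% of the members' windows and in 15.3% of all. The octamer ATGCAAAT, known as a site of OCT4, was in 2.33% and 1.87%, on either strand. The E-box CACGTG, which reads the same on both strands, was in 12.6% and 5.80%, and the cyclic AMP response element TGACGTCA, also alike on both strands, in 2.33% and 1.05%. In the 404 windows that overlapped a region of 1 to 11 libraries the GC box was in 21.8% and the CCAAT box in 36.4%. There the TATA box was in 8.66%, the octamer in 2.72%, the E-box in 8.66% and the cyclic AMP response element in 1.24%. In the 61 other windows that overlapped a region of 12 libraries, the TATA box was in 26.2%. The GC box and the CCAAT box were each in 29.5% of those. The lower TATA share was thus not particular to members, since the 404 windows had it too, though the 61 did not. Most of the 3796 windows lay in no region. These searches describe letters in a window and not bound sites.

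Position came next. The members lay at a median of 13644 bp from the nearest protein-coding gene, with quartiles of 6359.5 and 26501.5 bp. Of the merged regions in that band of distance, 24333 in all, 16.6% were members, 1181 were listed in 11 libraries and 7070 in a single library. The share of merged regions that were members was 14.1% between 1 and 5 kb (768 members), 17.1% between 5 and 10 kb (834), 16.8% between 10 and 20 kb (1011) and 17.9% between 20 and 50 kb (1438). Just inside the 1 kb limit were members near Cd248 at 1005 bp and Rap2a at 1006 bp, and just outside it regions near Cdx2 at 993 bp and Slco1a5 at 997 bp. Just inside the 50 kb limit were members near Zfp64 at 49875 bp and Tex35 at 49910 bp, and just outside it regions near Cacna2d1 at 50016 bp and Galnt13 at 50032 bp. Protein-coding genes were within 50 kb on both sides of 1914 members (47.2%). Of the members whose nearest gene has a strand in the RefSeq promoter table, 1689 were upstream (53.5%) and 1470 downstream, while 892 had no strand there.

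Signal was compared as rank, because folds of separately called lists are not on 1 scale. For each library a region took the fold of its strongest peak, and its percentile was counted once in that library's own list and once among the 22472 constitutive regions. In their own lists the members' median percentile was 69.7 ± 4.46 (SD, n = 12 libraries). It ran from 61.7 in the library with the shortest list, synHPRT1 clone 2 replicate 3, to 76.4 in the library with the longest, synHPRT1 clone 2 replicate 1. Among constitutive regions, a scale of the same length in every library, the members' median was 42.4 ± 0.730 and ran from 41.2 to 43.9. Their median fold was 6.36 ± 0.235, and their median width was 970 bp. The 2 longest lists stood highest and the shortest lowest on the first scale, and the libraries lay close together on the second.

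Members ranked below constitutive regions at gene ends and below those farther from genes, and only slightly below those inside genes. Regions within 1 kb of a gene end (9453 regions) had a median own-list percentile of 78.5 ± 3.24, which was higher than that of members by 8.83 on average. The difference was -8.83 ± 1.48 (members minus gene ends, lower in 12 of 12 libraries; two-sided paired exact permutation test over libraries, p = 0.000488, the smallest that 12 libraries allow, adjusted p = 0.000732 over 3 comparisons). Regions over 50 kb from any gene (3223) stood at 74.7 ± 4.31, and the difference of members from them was -5.02 ± 0.982 (lower in 12 of 12; exact permutation p = 0.000488, adjusted p = 0.000732). Ranked by −log10 p-value it was -1.78 (exact permutation p = 0.000977). Regions inside genes and over 1 kb from their ends (5745) stood at 70.4 ± 4.57, and the difference was -0.688 ± 0.553 (lower in 9 of 12 and equal in 3; exact permutation p = 0.00391, adjusted p = 0.00391). Ranked by the deposited −log10 p-value instead of the fold, this last difference was 0.0645 with p = 0.703 by the same exact permutation test. All 12 libraries hold the same regions, so these tests speak of the spread between libraries and not of a new sample of regions. The classes differed in width too, with medians of 1207 bp at gene ends, 1020 bp inside genes and 996 bp far from genes, and the part of width in these differences was not tested.

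**Figure D1:**
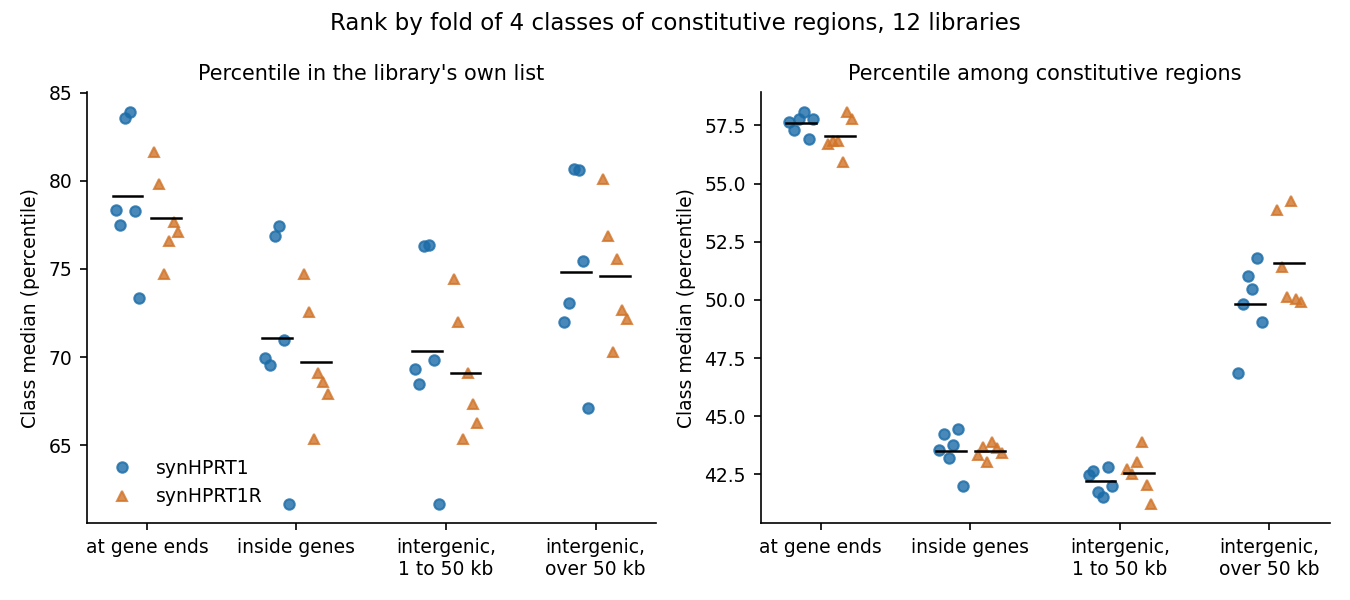
Each point is 1 library's median percentile by fold for a class of constitutive regions (y axis, percentile; circles synHPRT1, triangles synHPRT1R, 6 libraries each; black lines are means), counted in the library's own list on the left and among the 22472 constitutive regions on the right. The 2 panels have separate y axes that do not start at 0; on the right the members, labelled intergenic 1 to 50 kb, lie between 41.2 and 43.9, below all points at gene ends and all points of regions over 50 kb from genes.

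Rank was lower close to genes. Among constitutive regions the members' median percentile was 35.6 ± 1.11 between 1 and 5 kb from a gene, 40.9 ± 1.48 between 5 and 10 kb, 44.0 ± 1.27 between 10 and 20 kb and 45.5 ± 1.60 between 20 and 50 kb (SD over 12 libraries). Median width differed little over the same bands, from 941.5 bp in the nearest to 992 bp in the farthest. Members upstream of their nearest gene stood at 40.5 ± 0.802 and those downstream at 44.3 ± 1.10. These are descriptions without a test.

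**Figure D2:**
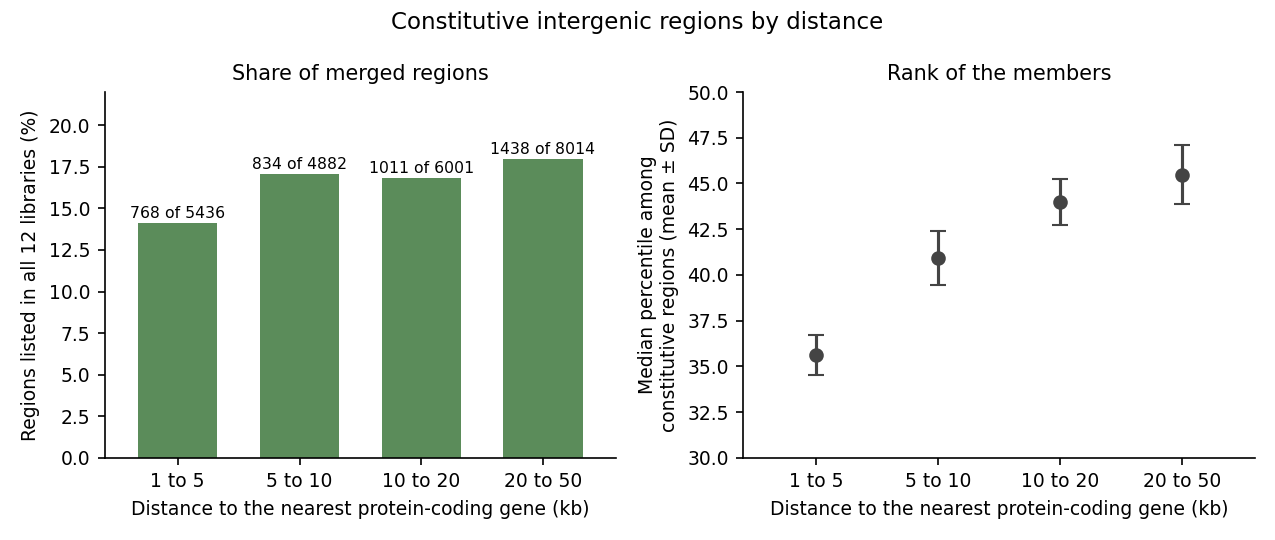
Left, the share of merged regions that were listed in all 12 libraries (bars, percent, with counts above) in 4 bands of distance to the nearest protein-coding gene. Right, the members' median percentile by fold among constitutive regions (points, mean over 12 libraries; bars, SD; the y axis starts at 30), which is 35.6 in the nearest band and 45.5 in the farthest.

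The strongest members were narrow and held their rank in every library. How duplicate reads, control signal and regions prone to mapping errors were treated is not known here, and a part of mapping in the extreme folds was not tested. By median own-list percentile 59 members (1.46%) stood above 99. The share was 2.76% for regions far from genes, 0.923% inside genes and 0.825% at gene ends. Members were 3 of the 10 highest constitutive regions but 140 of the 1000 highest (14%), beside 18.03% of all constitutive regions. The highest member was chr8:83756772-83756985, only 214 bp wide and 15461 bp from Adgre5, which encodes an adhesion receptor. Its fold had a lowest, median and highest value of 47.3, 48.4 and 49.1 in synHPRT1 and 47.2, 48.0 and 49.6 in synHPRT1R. The ranges of the genotypes overlapped almost fully. The second, chr9:35305222-35305591, 29265 bp from Rpusd4, had folds of 46.1, 46.7 and 48.6 in synHPRT1 and 46.6, 46.8 and 47.2 in synHPRT1R, and overlapped the lncRNA gene Gm33838. Next was chr10:96077617-96077881, 32099 bp from Eea1, an early endosome gene, with a fold of 42.7 ± 0.816 over 12 libraries. It took the same place among constitutive regions in all 12. The next 7 lay near Myl12b, Nkx2-6, Tmem196, Gm14496, Gm45871, Fam107a and Marchf11, with mean folds from 33.4 down to 26.3. Those near Myl12b and Marchf11 overlapped the lncRNA genes Gm46595 and Gm52201. The other 2 of the 5 highest-ranked members that overlapped an lncRNA gene were near Gm14444, with a fold of 16.3 ± 1.80, and near Tcp10c, with 14.2 ± 1.52.

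At the other end 14 members (0.346%) had a median own-list percentile under 10. The share was 0.558% for regions far from genes, 0.418% inside genes and 0.116% at gene ends. The lowest member was chr1:24611638-24616108, 23716 bp from Col19a1, a collagen gene. It was the widest member at 4471 bp, overlapped the pseudogenes Gm10222 and Gm10925, and had a fold of 1.89 ± 0.0339. Its median own-list percentile was 0.0100 by fold and 99.96 by −log10 p-value, so the 2 columns put it at opposite ends. The other 4 of the 5 lowest were near Gm21119 with a fold of 2.60 ± 0.303, near Klf9 with 2.94 ± 0.305, near Ppp1r12a with 2.96 ± 0.364 and near Lgr4 with 2.98 ± 0.377. Klf9 encodes a Krüppel-like factor and Lgr4 an R-spondin receptor of the Wnt pathway, and the member near Lgr4 overlapped Platr8, an lncRNA gene. Over all 4051 members the ranks by the 2 columns went together with a Spearman correlation of 0.876, as a description across regions that share libraries.

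Library-to-library spread was large for single members. The median SD of a member's percentile among constitutive regions over 12 libraries was 14.7, against 14.6 inside genes, 12.9 at gene ends and 15.5 far from genes. The 5 members with least spread on that scale were those near Eea1, Col19a1, Adgre5, Gm14496 and Rpusd4, all at an extreme of the ranking. Most spread was the member near Spry2 at chr14:105851116-105851985, with folds of 3.97, 4.81 and 7.58 (lowest, median, highest) in synHPRT1 and 5.95, 8.02 and 10.95 in synHPRT1R. Members near Sucnr1, Arnt2, Serpina1d and Ceacam5 followed, with percentiles of 52.6 ± 31.7, 61.5 ± 30.2, 34.1 ± 29.5 and 52.3 ± 28.3. Within a member the summits were close together, with a median SD of summit position of 76.0 bp over libraries. In 3310 members (81.7%) every library listed a single peak.

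Members were spread over many genes. They had 3064 nearest protein-coding genes, 14.8% of the 20665 on these chromosomes, and 2354 of these genes had 1 member, 710 had 2 or more and 19 had 5 or more. BC107364 on chromosome 3 was nearest to 7 members. Foxd3, Gm40363, Gm15319, Sall1, Trim27, Zfp184, Gm10323 and Zfp213 were nearest to 6 each, and Kank4, the next by genome order, to 5. Foxd3 encodes a forkhead factor that acts as cells leave naive pluripotency, and Sall1 a zinc finger factor expressed in embryonic stem cells. The 6 members of Foxd3 lay 4151 to 19000 bp away, those of Sall1 8637 to 34515 bp. Their percentiles among constitutive regions averaged 29.3 ± 5.44 and 33.1 ± 3.86. Trim27 and Zfp184 lie on chromosome 13 within the tRNA-rich stretch described below.

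Of the 14 lists examined, that of naive pluripotency had the largest share of genes nearest to a member. Of 14 such genes on these chromosomes 10 were nearest to at least 1 member, beside 14.8% of all protein-coding genes, and of 14 general pluripotency genes 7 were. All lists were chosen with earlier results of these data known, and the length of the flanks of each gene was not taken into account, so the counts are given without a test. Klf5, a Krüppel-like factor of naive cells, was nearest to 4 members, Klf4 and Dppa3 to 3 each. Klf4 encodes a reprogramming factor, and its highest-ranked member, chr4:55514553-55515483, lay 11654 bp downstream. Folds of the synHPRT1 libraries there were 8.80, 9.45 and 10.5 (lowest, median, highest), and those of the synHPRT1R libraries 8.04, 11.03 and 12.9. The ranges overlapped, and the percentile among constitutive regions was 89.5 ± 6.98. The other 2 members of Klf4, over 45 kb away, stood at 3.04 ± 2.69 and 6.52 ± 4.75. The highest member of Klf5, chr14:99324280-99325389, stood at 61.0 ± 12.8, and that of Dppa3, a maternal factor also called Stella, chr6:122632759-122633741, at 62.3 ± 11.8.

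Nanog, the homeobox factor of the pluripotency network, was nearest to 2 members. The one at chr6:122702305-122703224, 4265 bp upstream, had folds of 6.78, 7.12 and 7.42 in synHPRT1 and 6.05, 7.17 and 8.01 in synHPRT1R. Its percentile was 56.7 ± 9.21, and the second stood at 40.1 ± 17.8. Sox2, the partner of OCT4, and Sall4, a zinc finger factor, were nearest to 1 member each, with percentiles of 33.1 ± 17.3 and 55.8 ± 23.2. Among 13 genes of the primed state 3 were nearest to a member. The highest members stood at 69.6 ± 10.2 for Foxd3, 69.2 ± 12.2 for Otx2, which drives the step out of the naive state, and 84.5 ± 6.23 for Lef1, a transcription factor of the Wnt pathway. The members of Foxd3 ranged from 4.18 ± 5.21 to that highest value.

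Pathways that the medium acts on had members as well. Of 15 genes of LIF and STAT3 signalling 9 were nearest to a member, of 16 Wnt target genes 6 and of 16 genes of FGF and ERK feedback 6. The Wnt and FGF shares, 37.5% each, were near the 38.5% of housekeeping genes, beside 14.8% of all protein-coding genes. Klf4 and Tfcp2l1 of the LIF list were also counted as naive genes, and Lef1 of the Wnt list as a primed gene. Socs3, the feedback inhibitor of JAK and STAT signalling, had a member 2145 bp away at 48.4 ± 9.06, and Il6st, the shared receptor chain of the LIF family, one at 44.6 ± 13.6. Myc, a growth regulator downstream of both LIF and Wnt, was nearest to 4 members, the highest at 46.2 ± 19.8, and Axin2, a feedback inhibitor of Wnt, to 2 with the highest at 34.0 ± 16.9. Spry2, an inhibitor of receptor tyrosine kinase signalling to ERK, was nearest to 5 members. The one at chr14:105920235-105921333, 23416 bp upstream, had folds of 10.997, 11.3 and 12.2 in synHPRT1 and 10.03, 10.9 and 11.7 in synHPRT1R and a percentile of 95.4 ± 2.16. It was the highest of the members named here for the gene lists, and the least spread. Spred1, of a related inhibitor family, and Fos, an immediate early gene, had members at 87.5 ± 7.06 and 67.6 ± 14.3.

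Lineage genes were nearest to members as well. The counts were 3 of 10 each for neural, mesoderm, endoderm and fibroblast genes. They were 5 of 10 for trophoblast genes, 1 of 10 for germline genes and 5 of 13 for housekeeping genes. Of genes taken as silent in these cells 0 of 14 were nearest to a member, and of all protein-coding genes 14.8%. The proneural genes Neurog2 and Neurog1 had highest members at 64.8 ± 20.5 and 20.7 ± 17.9. Gsc, an organiser homeobox gene, Msgn1, of presomitic mesoderm, and Eomes, a T-box gene also on the trophoblast list, had 67.9 ± 14.4, 64.0 ± 15.2 and 16.8 ± 12.6. The pioneer factor genes Foxa2 and Foxa1 stood at 36.2 ± 17.1 and 3.83 ± 3.65, and the receptor gene Pdgfra at 12.05 ± 7.503. Tfap2c, an AP-2 factor of trophoblast and germ cells, had 4 members with the highest at 73.9 ± 16.9, and Cdx2, a trophoblast homeobox gene, 1 at 47.3 ± 25.1. Dmrt1, a gonadal regulator, had 4 members with the highest at 35.0 ± 21.3. The fibroblast matrix genes Col3a1, Lum and Col1a2 had members at 75.1 ± 6.75, 68.0 ± 19.2 and 58.9 ± 17.2. Whether other cells in the cultures contributed to them was not tested. Actb and Ywhaz, taken as housekeeping genes, had 38.5 ± 10.6 and 37.5 ± 11.7.

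**Figure D3:**
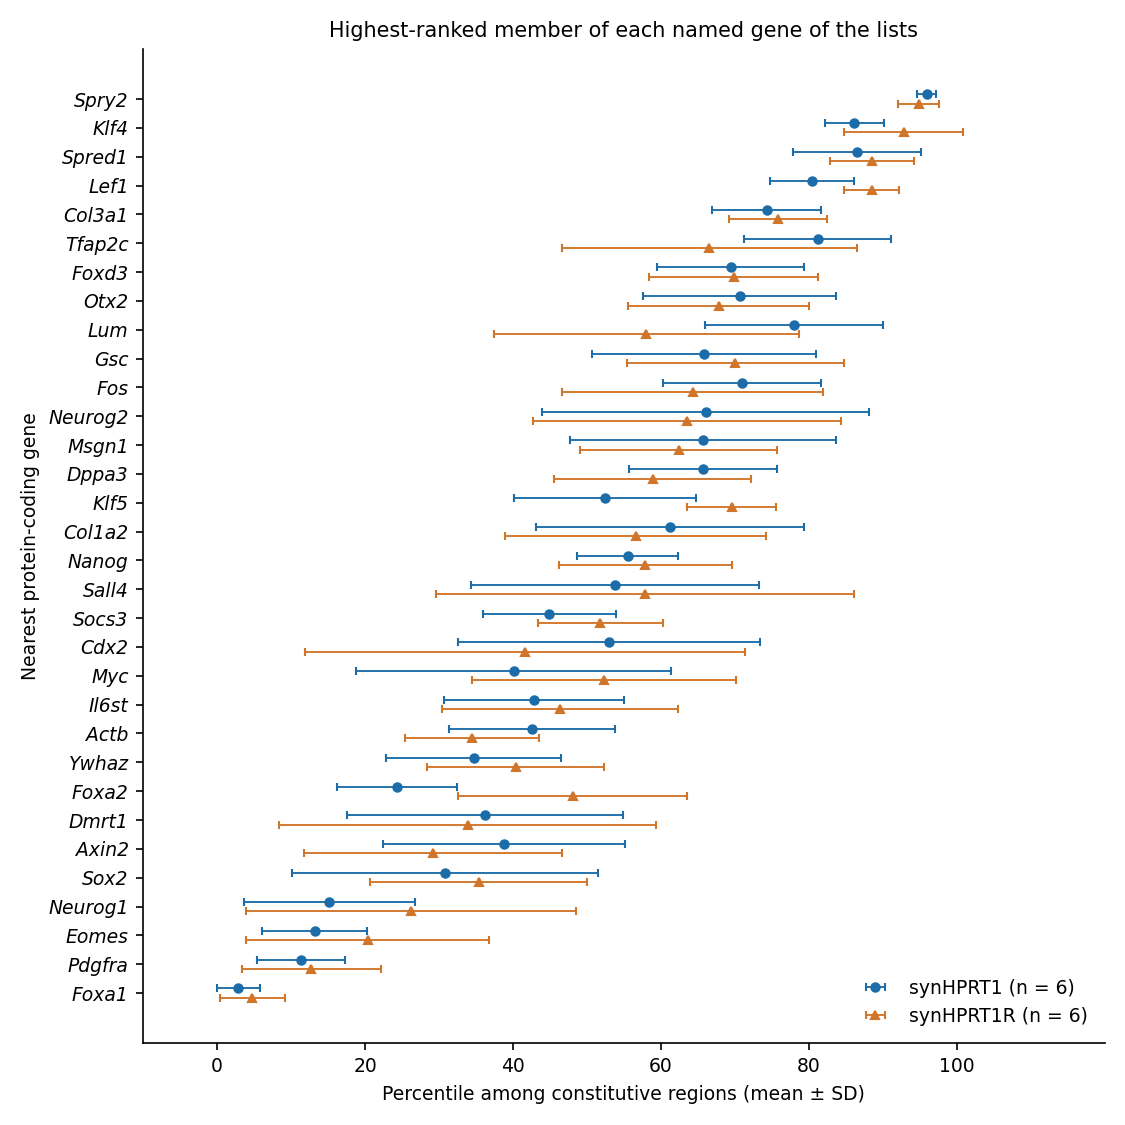
Percentile by fold among constitutive regions (x axis; mean ± SD of 6 libraries per genotype; circles synHPRT1, triangles synHPRT1R) of the highest-ranked member of each gene named for the lists (y axis), ordered by the mean of all 12 libraries. The members run from Foxa1 at 3.83 to Spry2 at 95.4, and bars that reach past 100 come from the symmetric SD.

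Non-coding genes overlapped 1058 members (26.1%), and transfer RNA genes had the largest share of the biotypes with at least 30 genes. Of 254 tRNA genes 1 to 50 kb from protein-coding genes, 154 (60.6%) overlapped a region listed in all 12 libraries, 67 a region of 1 to 11 libraries and 33 none. The same share was 30.6% (11 of 36) for genes RefSeq calls miscellaneous RNA, 14.7% for 3970 lncRNA genes, 9.94% for 312 small nuclear RNA genes, 7.32% for 164 microRNA genes and 2.45% for 4041 pseudogenes. These gene classes differ in length, and the shares carry no test. In all 147 tRNA genes lay in 95 members, of which 34 held 2 or more and none more than 4. By the amino acid letter in the gene name, 18 of 20 leucine (L), 11 of 13 proline (P) and 13 of 17 alanine (A) tRNA genes lay in members, against 2 of 13 for glutamine (Q) and 2 of 11 for cysteine (C). The last 2 differed, since 10 glutamine genes overlapped a region of 1 to 11 libraries and 1 overlapped none. For cysteine genes these counts were 1 and 7.

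**Figure D4:**
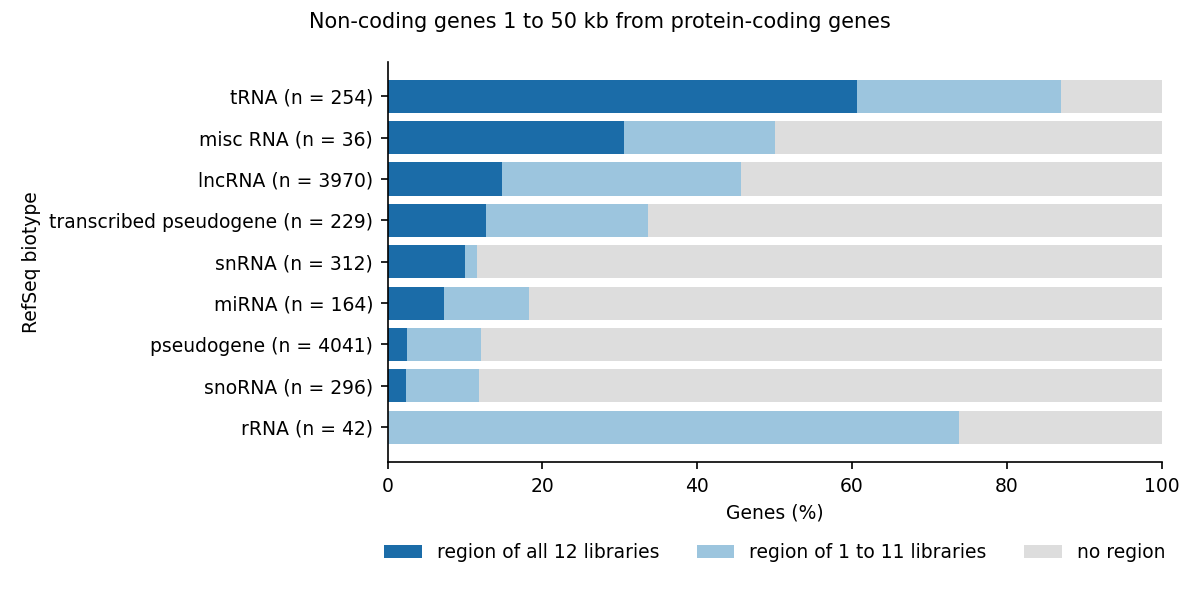
For each RefSeq biotype with at least 30 genes 1 to 50 kb from protein-coding genes (immune gene segments left out), bars give the percent of genes that overlap a region of all 12 libraries, a region of 1 to 11 libraries or no region. Transfer RNA genes have the largest share in regions of all 12 libraries, 60.6%, and ribosomal RNA genes have 0 of 42.

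Members with tRNA genes ranked differently by the 2 columns. Among constitutive regions their median percentile by fold was 33.1 ± 3.38, against 42.5 ± 0.705 for the members without one, and was lower in 12 of 12 libraries. By −log10 p-value the medians were 47.3 ± 4.29 and 43.0 ± 0.913, with the order turned. They were wider, 1161 against 966 bp, and their summits varied more in position, with a median SD of 116 against 75.5 bp. This comparison was chosen after the values were seen and has no test. The 5 members named for the number of their tRNA genes held 4 each. The widest of them, chr1:171079137-171081258, carried genes for glutamate, glycine, aspartate and leucine tRNAs near Fcgr3, with folds in synHPRT1 of 3.94, 4.73 and 5.26 (lowest, median, highest) and in synHPRT1R of 4.37, 4.61 and 4.70. Its neighbour at chr1:171071662-171073762 carried the same 4 kinds and stood at 10.7 ± 7.49 among constitutive regions, beside 11.4 ± 4.16. The others were near Cfap126 with 49.6 ± 14.7, Trim55 with 61.8 ± 12.6 and Ctc1 with 8.23 ± 4.25.

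Chromosome 13 held 37 of the 95 members with tRNA genes. The outer edges of these 37 span 2.36 Mb, chr13:21160454-23518269, which held 43 members among 116 merged regions. Many tRNA genes of the same stretch lay in no member. The 37 were not set against the share of all tRNA genes that lie on chromosome 13, so they show no excess there. Single tRNA genes and small RNA genes elsewhere were members too, and 8 were named after their values were seen. Rn7s2, a signal recognition particle RNA gene near Nemf, stood highest with 85.9 ± 5.23 among constitutive regions. Rnu5g and Rnu2-10, spliceosomal RNA genes, stood at 66.3 ± 16.8 and 64.99 ± 15.3, and Rn7sk, whose RNA restrains transcription elongation, at 63.6 ± 11.6. Rny1, a Y RNA gene, stood at 31.7 ± 14.3 and Rnu11, of the minor spliceosome, at 17.8 ± 12.9. Terc, the telomerase RNA, lay in chr3:96414330-96414947 with folds of 3.09, 4.67 and 5.86 in synHPRT1 and 4.01, 4.74 and 5.29 in synHPRT1R, and its percentile was 13.1 ± 9.39. The member with Rnu1b6, a U1 RNA gene, stood at 8.95 ± 7.89.

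The members that carry the microRNA genes shown above spanned most of the ranking. The one with Mir713, chr13:62760102-62761036, had folds of 7.65, 10.1 and 11.7 in synHPRT1 and 7.39, 9.15 and 10.6 in synHPRT1R and a percentile of 84.8 ± 9.38. That with Mir210, a hypoxia-induced microRNA, chr7:141221394-141222446, stood at 75.4 ± 11.96, and that with Mir1983, which also held a tRNA gene, at 71.0 ± 22.2. Mir760 stood at 49.8 ± 12.6, Mir187 at 31.8 ± 17.5 and Mirlet7i at 31.0 ± 13.6. The let-7 family is known for rising as stem cells differentiate. Mir6347 stood at 30.2 ± 18.3, Mir7229 at 28.5 ± 20.7 and Mir9-3, whose mature strand acts in neural cells, at 23.6 ± 14.3. The member of Mir212 and Mir132, chr11:75172869-75173906, had folds of 3.21, 4.04 and 4.84 in synHPRT1 and 3.00, 4.36 and 5.21 in synHPRT1R and was the lowest of the 10 at 6.66 ± 5.59.

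Some members formed close groups. With gaps of at most 10 kb and at least 3 members, there were 70 clusters with 243 members (6.00%). Of these 53 had 3 members, 9 had 4, 4 had 5, 3 had 6 and 1 had 10. The number depends on the gap, with 25 clusters at 5 kb and 156 at 20 kb, and on the peaks used, with 22 where a −log10 q-value of 5 was required. The median gap between neighbouring members was 201406 bp, and 12.2% of gaps were within 10 kb.

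The largest cluster, chr6:47739679-47788696, had 10 members between Gm40363 and Pdia4, a protein disulfide isomerase gene, and included Rny1 in its last member. Its percentile among constitutive regions averaged 34.9 ± 3.58 (SD over 12 libraries), and the members' own-list percentiles ran from 15.6 to 88.5 by fold. The cluster near Eapp and Snx6, chr12:54709872-54739092, had 6 members and 6 small nuclear RNA genes in its span and averaged 24.5 ± 4.23. That near Zfp213, chr17:23533116-23550834, had 6 members and 7 tRNA genes and averaged 15.1 ± 4.82. That near Gm40469 and Gm21119, chr8:20582314-20610062, had 6 members and the lowest mean of the 8, 8.83 ± 2.36.

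Clusters of 5 members were near Mreg and Pecr, near Serbp1, near Btn2a2 and H4c8, and near AU018091 and Nlrp12. The first, chr1:72225548-72255966, had 4 small nuclear RNA genes and the highest mean of the 8 at 49.4 ± 7.61. The cluster near Serbp1, an mRNA-binding protein gene, chr6:67219632-67244449, averaged 30.4 ± 6.41 with no non-coding gene in its span. That near Btn2a2 and the histone gene H4c8, chr13:23492029-23518269, had 9 tRNA genes and averaged 23.3 ± 4.88. The cluster beside the miR-290 family, chr7:3192998-3214040, averaged 23.5 ± 5.37. Its 5 members had median folds of 4.42, 6.40, 6.58, 4.40 and 3.55 in order along the chromosome, so that the inner pair stood above the other 3.

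The genotypes were compared on the rank of each member among constitutive regions. No member passed. With limma and clone as a block, fitted on all 22472 constitutive regions, 0 of 4051 members had an adjusted p under 0.05 (0% of all constitutive regions), and the smallest adjusted p was 0.162. At an unadjusted p under 0.05 there were 374 members (9.23%), beside 9.33% of all constitutive regions, a share near the background. Ranking by −log10 p-value in the same model called 1 member, chr8:19697511-19698989, near 4930467E23Rik, beside 3 of all constitutive regions (0.0133%), at 94.4 in synHPRT1 and 74.2 in synHPRT1R (limma adjusted p = 0.0346), where the rank by fold gave limma adjusted p = 0.235. The median standard error of a member's difference was 7.67 percentile points, and differences several times that size can be missed with these libraries. A p that misses the threshold does not show that the genotypes are alike.

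The 5 members with the smallest p in the limma fit with clone as a block were near Trio, Cep170, Slitrk3, Slc25a13 and Gldc. All ranked higher in synHPRT1. The member near Trio, a guanine exchange factor gene, chr15:28060330-28061528, had percentiles of 47.5, 57.6 and 64.2 (lowest, median, highest) in synHPRT1 and 4.05, 12.5 and 34.7 in synHPRT1R. The groups did not overlap, and the difference was 38.8 ± 6.27 percentile points (standard error; limma adjusted p = 0.162). The next 3 had differences of 35.5 ± 6.09, 47.0 ± 8.21 and 42.8 ± 7.66, also without overlap, each with limma adjusted p = 0.162. Gldc, a gene of the glycine cleavage system that is abundant in embryonic stem cells, had a member at 85.9 ± 7.72 in synHPRT1 and 57.0 ± 11.9 in synHPRT1R (SD), with overlapping groups and limma adjusted p = 0.178. Without the clone block the limma adjusted p was 0.358 for the member near Gldc and 0.341 for each of the others named. Over all members, 13 had every synHPRT1 library above every synHPRT1R library, beside 0.218% of all constitutive regions, and 5 had the reverse, beside 0.16%. The 13 are 0.321% of the members and the 5 are 0.123%. The clone is the independent unit, and with 2 clones per genotype, differences between genotypes and between clones cannot be fully told apart.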

How the data were processed

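Tools listed in the submitters' processing notes are MACS2 2.1.0, Bowtie2 2.2.9, deepTools 3.5.0, bcl2fastq 2.20 and SAMtools 1.9, with GRCm38 as the build. How they were set, for Tn5 shifting and duplicates too, was not given in the sources used here. The authors deposited 1 peak list per library, so peaks were not called on pooled samples. The deposited columns hold an integer score, a fold (the ratio of summit pileup to local background) and the −log10 p-value and −log10 q-value of the summit. These values rank or filter peaks within a list. No read counts were used, and list length, 38403 to 63704 peaks, stands in for depth.

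Regions were merged and ranked in Python 3.11.15 with pandas 2.3.3 and SciPy 1.17.1. Genes, promoters and microRNAs came from RefSeq tables of GRCm38.p6, which give gene spans without exons. Genotypes were compared with limma 3.58.1 in R 4.3.3 (trend, clone as random block, Benjamini-Hochberg), which was tested on simulated data. There it recovered 0 of 100 regions moved by 15 percentile points and 9 of 100 moved by 30, with 0 false calls. Shifts of that size would thus mostly be missed. Class medians were compared with paired sign-flip permutation tests over 12 libraries. Alternatives were other ranks, filters, gaps, list lengths and leaving out each library.

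Named are the 10 highest and 5 lowest members, the 10 genes with most members, the 8 largest clusters, 3 genes per list, the 2 members or regions on each side of a limit, the 5 smallest genotype p-values, members with microRNA genes, the 5 highest with lncRNA genes, and the 5 least and 5 most spread. Of the list genes this rule names, 2 are not reported here. The members and all lists were chosen with earlier results of these data known.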

Additional observations from a re-analysis of the deposited data

Results flagged for a closer look

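Single libraries stood apart from the other 5 of their genotype in 19 of 184 groups checked (10.3%) with Dixon's test at 95%. For normally distributed values chance gives about 1 in 20. Percentiles are bounded, and some members were named for extreme rank or spread, so that rate need not hold here. All 19 were single members. The values are percentiles by fold among constitutive regions, with the nearest other library of the genotype after each.

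Among the lowest-ranked members, that near Ppp1r12a was 3.68 in synHPRT1R clone 1 replicate 3 against 0.576, and that near Klf9 was 0.790 in the same library against 0.247. The member near Lgr4 was 2.098 in synHPRT1 clone 1 replicate 2 against 0.345 and 1.31 in synHPRT1R clone 1 replicate 1 against 0.452. That near Gm21119 was 0.412 in synHPRT1R clone 2 replicate 3 against 0.100. That near Col19a1 was 0.00667 in synHPRT1 clone 1 replicate 2 and 0.00667 in synHPRT1R clone 2 replicate 2, each against 0.00222. These gaps are under 4 percentile points.

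Larger gaps were seen higher up. The member at chr14:105851116-105851985 near Spry2 was 68.7 in synHPRT1 clone 1 replicate 2 against 23.0. The Mir6347 member near Uck2 was 69.1 in synHPRT1 clone 2 replicate 3 against 31.4. The member with Rny1 near Pdia4 was 5.80 in synHPRT1R clone 2 replicate 1 against 31.6. The Dmrt1 member was 83.3 in synHPRT1R clone 2 replicate 3 against 36.3, and the Foxa2 member 40.2 in synHPRT1 clone 1 replicate 2 against 24.5. That near Gldc was 79.2 in synHPRT1R clone 1 replicate 1 against 56.8, and that near Klf4 77.2 in synHPRT1R clone 2 replicate 1 against 92.2. The Rn7s2 member near Nemf was 96.0 in synHPRT1R clone 1 replicate 1 against 84.3, and the Mir760 member near Dnttip2 was 37.2 in the same library against 51.4. The Rn7sk member near Cilk1 was 70.9 in synHPRT1R clone 2 replicate 2 against 61.2, and the tRNA member near Fcgr3 26.5 in synHPRT1R clone 1 replicate 3 against 11.2. The Mir7229 member near Sgsm1 was 16.7 in synHPRT1R clone 2 replicate 1 against 21.5.

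The distance in own-list percentile between members and regions over 50 kb from genes was -4.50 ± 1.05 in synHPRT1 and -5.54 ± 0.606 in synHPRT1R (SD, n = 6). These differ by 1.05 (two-sided exact permutation test, p = 0.0476, adjusted p = 0.143 over 3 comparisons). Among constitutive regions the same test gave p = 0.190 by exact permutation.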

How the results depend on the processing

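Leaving out 1 library gave 4055 to 4358 members, 70 to 80 clusters, a median own-list percentile of 69.0 to 69.6, differences of -0.966 to -0.526 from regions inside genes, -9.27 to -8.82 from gene ends and -5.62 to -4.97 from far regions, and 0 to 0 members called between genotypes. The number of members fell to 2562 when only peaks whose −log10 q-value reached 5 were used and to 1301 when peaks had to cover 50% of a region in each library. Clusters numbered 22 at that q-value, 25 with gaps of 5 kb and 156 with gaps of 20 kb. Among constitutive regions the members' median percentile is 42.4, a different scale. The difference from regions inside genes turned to 0.0645 when ranked by −log10 p-value, and the cause was not tested. The differences from gene ends and from far regions kept their sign and their side of the threshold in all 17 alternatives each, between -14.9 and -7.98 and between -8.33 and -1.78. Lists cut to equal length, added for the ranks after the data were seen, gave 66.6 ± 0.540 for the median. The genotype count was 1 when ranked by −log10 p-value and 0 in the other 16 alternatives.

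With the replicate number as a block, 0 members were called and 352 had an unadjusted p under 0.05 (8.69%, beside 8.53% of all constitutive regions). Samples with the same number in different clones did not deviate together (correlations from -0.0253 to 0.0303 over 18 pairs), so the numbers were not taken to pair them. The estimated correlation within clones was negative, -0.0682, so the clone block did not make the main fit more cautious. Without the block 291 members had an unadjusted limma p under 0.05, against 374 with it. The 291 were 7.18% of the members, beside 1573 of the 22472 constitutive regions. Clone means, 2 against 2, gave 261 (6.44% beside 6.03%). Counting depth beyond list length is not known, and a region missing from a short list may be undetected there.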

Other observations

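Members were not spread evenly over the chromosomes. Chromosome 13 had the highest share of its regions 1 to 50 kb from genes listed in all 12 libraries, 20.6% (267 of 1294), and chromosome 11 the lowest, 12.9% (191 of 1476). Chromosome 13 also holds the long tRNA-rich stretch, whose part in this share was not tested. Genes with a provisional name (Gm and a number, or ending in Rik) were nearest to 329 members (8.12%).

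Ranked among constitutive regions, the 3 members most above their fold rank by −log10 p-value lay near Col19a1, Sfi1 and Gm15319. In the libraries' own lists they stood by −log10 p-value at percentiles of 99.96, 94.4 and 98.2, and by fold at 0.0100, 31.8 and 52.6. All 3 overlapped pseudogenes, which near Sfi1 and Gm15319 were of the biotype transcribed pseudogene. Of all members 2.84% overlapped a pseudogene and 1.09% a transcribed pseudogene. These 3 were picked as extremes, so no pattern is drawn from them. In the opposite direction, the member near Tas2r123, a bitter taste receptor gene, stood at 90.1 by fold and 84.5 by −log10 p-value. In the cluster of 10 members near Gm40363 and Pdia4, the 4 nearest to Gm40363 stood at 97.8 to 99.1 by −log10 p-value and at 53.1 to 78.5 by fold.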
